A study of Homo sapiens with 4 samples.

Results

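Heat shock protein and chaperone mRNAs were compared between TIA1 immunoprecipitates and total RNA of KYSE180 cells, an established cell line from a human esophageal squamous cell carcinoma. The genes were a fixed list of 10: HSPA1A, HSPA1B, HSPA8, HSP90AA1, HSP90AB1, HSPB1, DNAJB1, HSPH1, HSPD1 and HSPE1. Members were the array probes, controls aside, whose listed transcript belongs to one of these symbols, a rule that uses no measured value. The list matched 19 probes, of which 17 passed the detection filter, so that all 10 genes were measured among 13039 genes in all. The 2 probes left out are listed under retained-intron transcripts of HSPA8, and were detected on 1 array and on 0 arrays.

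The data were 4 single-colour arrays, of which 2 took RNA pulled down by an anti-TIA1 antibody (TIA1 RIP) and the other 2 took total RNA, labelled as input, numbered as replicates 1 and 2 in each group. RIP, ribonucleoprotein immunoprecipitation, recovers a protein together with the RNA attached to it. According to the methods, the immunoprecipitations started from cytoplasmic lysates. The labels call the total RNA input, and the methods speak of RNA from input lysates. Whether the replicates were separate cultures is not given in the sources used here. The p-values therefore measure only the spread between these arrays, which may be technical. Both groups were of a single cell line with no stress treatment named in the labels, and RNA held by a control antibody was not analysed here.

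The 4 arrays lay on 1 slide and were scanned in 1 pass. Signals were dimmest on total RNA replicate 2, whose 75th percentile was 69.9, against 714 on the other total RNA array and 1271 to 1514 after TIA1 RIP. Between 32.2% and 48.4% of spots were well above background, again the fewest on total RNA replicate 2. Over all genes r was 0.932 within TIA1 RIP but 0.733 within total RNA, while total RNA replicate 1 and the first TIA1 RIP array reached 0.936. All 6 squamous markers (KRT5, KRT14, KRT6A, TP63, DSG3 and SFN) were detected on all 4 arrays. Among markers of other cell types, CD3E, COL1A2, PDGFRB and PECAM1 were detected on 0 arrays, DCN on 1, COL1A1 and CDH5 on 3, and PTPRC and VWF on 4, whose highest scaled log2 signals were -0.32 and -0.89. LYZ matched no probe.

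Chaperones bind unfolded stretches of other proteins and keep them from aggregating. HSP70 proteins cycle between loose and tight binding of their clients, a cycle that J-domain proteins start and exchange factors reset, and HSP90 proteins then help kinases and receptors to mature. In stressed cells the transcription factor HSF1 switches on the inducible members of these families, while their constitutive relatives are made in growing cells at all times. TIA1 is a U-rich RNA binding protein that represses translation and nucleates stress granules, the cytoplasmic bodies in which untranslated mRNAs gather during stress. For this comparison HSPA1A, HSPA1B, HSP90AA1, DNAJB1, HSPH1 and HSPB1 were set down as stress-inducible, and HSPA8, HSP90AB1, HSPD1 and HSPE1 as constitutive. The division is a convention, since several of the inducible genes, HSPB1 and HSP90AA1 among them, are also expressed without stress.

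Because TIA1 prefers U-rich RNA, the stretch of 24 bases with the most U in the 3′ untranslated region was taken from each gene's reference transcript (GENCODE on GRCh37). The richest stretch held 24 U in HSPA1B, 19 in HSPH1, 18 in HSP90AA1 and HSP90AB1, 15 in DNAJB1, HSPB1 and HSPD1, 14 in HSPA1A and HSPE1, and 10 in HSPA8. The median over 19151 genes was 15, so that 4 members lay above it and 3 below. The 4 richest stretches, and that of HSPA8 as the poorest, are written here 5′ to 3′ as RNA, with runs of at least 4 U in capitals.
HSPA1B, chr6:31797924-31797947, plus strand: UUUUUUUUUUUUUUUUUUUUUUUU
HSPH1, chr13:31710146-31710169, minus strand: guuuauucUUUUUUUUUUUUUggu
HSP90AA1, chr14:102547956-102547979, minus strand: UUUUUcuuuaUUUUUguuaauauu
HSP90AB1, chr6:44221551-44221574, plus strand: uuuaUUUUaUUUUcuucaUUUUgu
HSPA8, chr11:122928395-122928418, minus strand: uuguuccacacauuuaaaacauuu
These are reference letters and not measured sites of TIA1. The 3′ untranslated region of HSPH1, at 2345 bases, was the longest of the 10 and held 15 runs of at least 5 U, against a median of 1068 bases and 3 runs over all genes. The other members had regions of 119 to 1171 bases with 0 to 5 such runs.

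None of the 10 genes differed between TIA1 RIP and total RNA past the adjusted p in limma's test. The SE in this test draws on the spread of all genes as well as on that of the gene itself. Signals were taken as log2 values minus the 75th percentile of the same array, here called the scaled log2 signal, and the log2 ratio is the TIA1 RIP mean minus the total RNA mean. The log2 ratios of the members ran from -1.21 (HSPA1B) to 1.19 (HSPH1). In limma 0 of 10 members passed an adjusted p of 0.05, as did 0 of 13039 genes (0%), where the lowest adjusted p was 0.591. At an unadjusted p under 0.05 there were 144 genes higher (1.1%) and 524 lower (4.02%), and 0 members in either direction. Over all genes the median log2 ratio was -0.04, with 10% of genes under -1.60 and 10% over 1.43. An array signal is relative to all RNA labelled for that array, so less bound mRNA of a gene and more bound RNA of all others cannot be told apart.

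**Figure D1:**
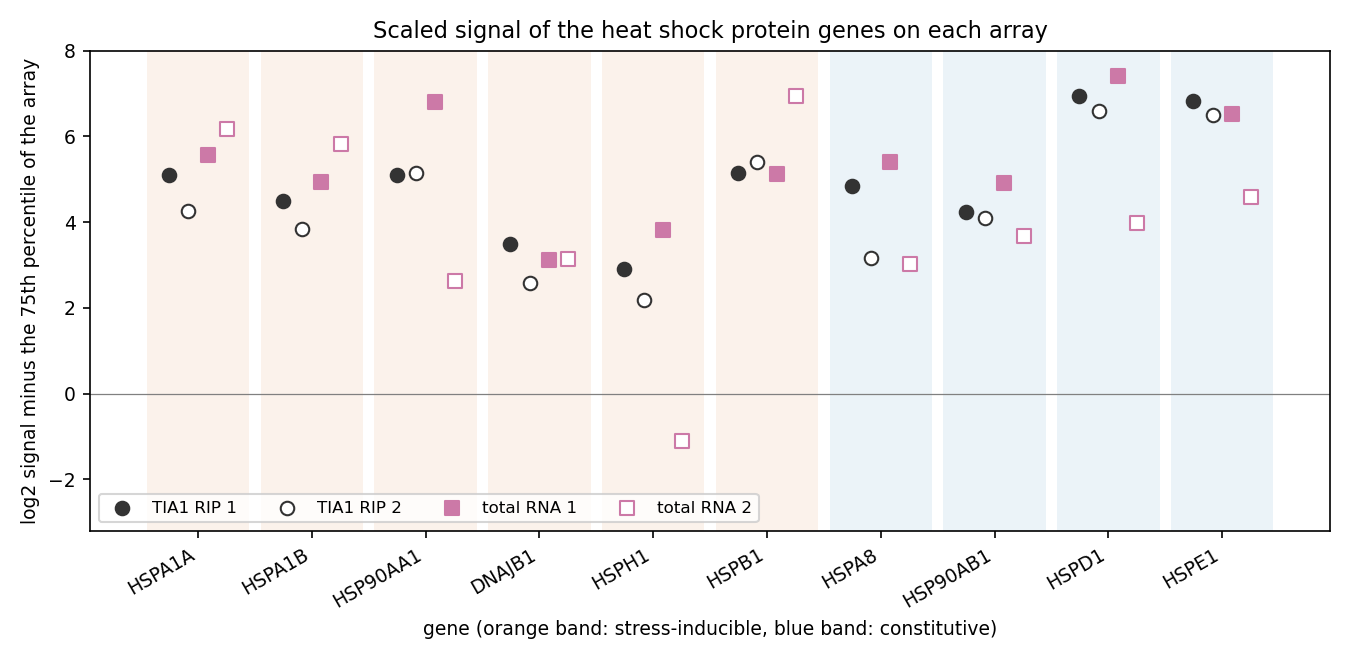
Scaled log2 signal (log2 signal minus the 75th percentile of the array, y axis) of each gene (x axis) on the 4 arrays, 1 point per array. Arrays are to be compared within a gene, since probes of different genes differ in brightness; for HSP90AA1, HSPH1 and HSPD1 the open square of total RNA replicate 2 lies 3.42 to 4.91 below the filled square of total RNA replicate 1.

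HSPA1A and HSPA1B encode the stress-inducible HSP70, and were the only members with both TIA1 RIP arrays below both total RNA arrays. HSPA1A, a gene of 1 exon at chr6:31783320-31785719 on the plus strand, gave scaled log2 signals of 5.10 and 4.27 after TIA1 RIP (replicate 1 first, as throughout), whereas total RNA gave 5.58 and 6.18. Its log2 ratio was -1.19 (SE 0.81, adjusted p = 0.776 from limma, n = 2 and 2), with a 95% interval from -3.11 to 0.72. HSPA1B, also of 1 exon, at chr6:31795515-31798031 on the same strand, stood at 4.50 and 3.85 in TIA1 RIP and at 4.93 and 5.83 in total RNA. Both total RNA values were higher for either gene, and the log2 ratio of HSPA1B was -1.21 (SE 0.82, adjusted p = 0.776 from limma, n = 2 and 2). This order of the arrays was seen in 2834 of 13039 genes (21.7%), so 2 of 10 members is near the background. The opposite order, both TIA1 RIP arrays above both total RNA arrays, held for 0 of 10 members against 2534 genes (19.4%).

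The HSPA1A and HSPA1B values are uncertain as values of separate genes. Array probes of this kind are 60 bases long, and 74.6% of the 60-base windows of the HSPA1A transcript occur unchanged in HSPA1B, while 71.0% of those of HSPA1B occur in HSPA1A. Where each probe lies within its transcript was not analysed here. The run of 24 U printed above is one place where the references of this gene pair part, since the richest stretch of HSPA1A holds 14 U. HSPA1B, the U-richest member by this count, had the lowest log2 ratio of the 10 on the means, at -1.21, beside -1.19 for HSPA1A. The lowest was HSP90AA1 against total RNA replicate 1 (-1.68) and HSPB1 against replicate 2 (-1.68). With the GC trend of each array removed, as described below, it was HSPA8 (-0.63), the U-poorest member by the same count. The share of U over the whole 3′ untranslated region ordered the members differently. It was lowest in DNAJB1, at 28.18%, beside 28.98% in HSPA8. By that share HSPA1B was again the highest, and HSPA1A came next at 43.46%, although its richest stretch was below the median of all genes. A link of U content to the ratios was not tested.

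HSP90AA1, the stress-inducible cytosolic HSP90 (chr14:102547079-102553381, minus strand, 11 exons), was the member whose replicate arrays of total RNA disagreed most after HSPH1. Its scaled log2 signals were 5.09 and 5.14 in TIA1 RIP, close to each other, but 6.80 and 2.62 in total RNA. The TIA1 RIP arrays lay between the total RNA arrays, so the sign of the difference depended on which total RNA array was used. Against total RNA replicate 1 the log2 ratios were -1.71 and -1.65, and against replicate 2 they were 2.47 and 2.53. On the means the log2 ratio was 0.41 (SE 1.35, adjusted p = 0.943 from limma, n = 2 and 2), with a 95% interval from -2.77 to 3.59. All 3 probes of the gene turned the same way, from a range of -1.89 to -1.50 against replicate 1 to a range of 1.90 to 3.67 against replicate 2. The values above 2.00 came from a probe with a signal of only 61.2 on total RNA replicate 2.

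HSPH1, an HSP110 protein that resets HSP70 by nucleotide exchange (chr13:31709110-31736041, minus strand, 18 exons), showed the same pattern at its widest. Its scaled log2 signals were 2.90 and 2.19 in TIA1 RIP and 3.82 and -1.1 in total RNA. The drop of 4.91 from total RNA replicate 1 to replicate 2 put the gene at a rank of 0.575% among all genes, where 0% is the largest drop. The log2 ratios were -0.91 and -1.63 against total RNA replicate 1 and 4.0 and 3.29 against replicate 2, and 1.19 (SE 1.52, adjusted p = 0.852 from limma, n = 2 and 2) on the means. Of its 2 probes, 1 was not well above background on total RNA replicate 2, so its low value there is a bound, while the other probe was detected on all 4 arrays and stood at 4.92 and -0.40 in total RNA. The gene with the longest and most run-rich 3′ untranslated region was thus the highest of the 10 against one total RNA array and among the lowest 3 against the other.

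DNAJB1, the J-domain partner that starts the HSP70 cycle (chr19:14625581-14629209, minus strand, 3 exons), was the one member on which the total RNA arrays were level. Its scaled log2 signals were 3.12 and 3.13 in total RNA, and those of TIA1 RIP, 3.50 and 2.58, lay on either side. The log2 ratio was -0.09 (SE 0.80, adjusted p = 0.983 from limma, n = 2 and 2), with a 95% interval from -1.98 to 1.81, which allows changes of either sign. The gene's own spread came from the TIA1 RIP arrays, which differed by 0.92, while the SE also draws on the spread of all genes.

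HSPB1, the small heat shock protein that holds unfolded proteins for refolding (chr7:75931990-75933609, plus strand, 3 exons), moved the other way between the total RNA arrays. It stood at 5.14 and 5.41 in TIA1 RIP and at 5.12 and 6.96 in total RNA on the scaled log2 scale. TIA1 RIP was level with total RNA replicate 1, with log2 ratios of 0.02 and 0.29, and lay below replicate 2, with -1.82 and -1.55. The log2 ratio on the means was -0.76 (SE 0.91, adjusted p = 0.843 from limma, n = 2 and 2), and its 3 probes gave -0.88, -0.92 and -0.49.

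Among the constitutive genes, HSPA8 encodes the HSC70 protein that folds new chains in unstressed cells (chr11:122928197-122932844, minus strand, 9 exons). Its scaled log2 signals were 4.84 and 3.15 in TIA1 RIP and 5.40 and 3.02 in total RNA. Both groups were wide, and the TIA1 RIP pair differed by 1.69, more than in any other member. The log2 ratio was -0.21 (SE 1.09, adjusted p = 0.965 from limma, n = 2 and 2). The value rests on 1 probe, and without the detection filter, which brings in the 2 retained-intron probes, it was -1.41. This member was also the one with the poorest U stretch.

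HSP90AB1 encodes the constitutive cytosolic HSP90 (chr6:44214838-44221620, plus strand, 12 exons). Signals were 4.23 and 4.09 in TIA1 RIP and 4.91 and 3.67 in total RNA on the scaled log2 scale. The TIA1 RIP arrays again lay between the total RNA arrays, and the log2 ratio was -0.14 (SE 0.83, adjusted p = 0.972 from limma, n = 2 and 2). Its 2 probes disagreed in sign, at 0.60 and -0.87, so the gene's value near 0 is a mean of opposite values.

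HSPD1 and HSPE1 encode HSP60 and HSP10, the mitochondrial chaperonin and its lid, from neighbouring genes that point away from each other on chromosome 2 (chr2:198351308-198364564, minus strand, 12 exons, and chr2:198365103-198368173, plus strand, 4 exons). HSPD1 stood at 6.96 and 6.60 in TIA1 RIP and at 7.41 and 3.99 in total RNA. HSPE1 stood at 6.82 and 6.49 in TIA1 RIP and at 6.53 and 4.59 in total RNA. In both genes total RNA replicate 2 was far below the other arrays, which lay within 0.81 of each other for HSPD1 and within 0.33 for HSPE1. The log2 ratios on the means were 1.08 (SE 1.19, adjusted p = 0.831 from limma) and 1.1 (SE 0.93, adjusted p = 0.786), each with n = 2 and 2. Of the 60-base windows of HSPE1, 45.2% also occur in other transcripts, among them the read-through HSPE1-MOB4 and pseudogenes, and for HSPD1 the share was 18.4%.

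Set against each total RNA array in turn, the chaperone mRNAs gave different pictures. Against total RNA replicate 1, both TIA1 RIP arrays were lower for 7 of 10 members, as they were for 4632 of all genes (35.5%), and the exceptions were DNAJB1, HSPB1 and HSPE1. Against total RNA replicate 2, both were higher for 6 of 10 members, beside 5165 of all genes (39.6%), and lower for 3 of 10 (HSPA1A, HSPA1B and HSPB1), beside 6474 genes (49.7%). The mean of both TIA1 RIP arrays minus total RNA replicate 1 ran from -1.68 (HSP90AA1) to 0.16 (HSPB1), and minus replicate 2 from -1.68 (HSPB1) to 3.64 (HSPH1). Over all genes the medians were 0.07 and -0.29. The members below both total RNA arrays on that mean were HSPA1A, HSPA1B and DNAJB1, the last at -0.08 and -0.09. With total RNA replicate 1 left out, limma called 1849 genes higher and 2051 lower, 29.9% of all genes, and 4 of 10 members, HSPH1 (3.64, adjusted p = 0.0215), HSPD1 (2.79, adjusted p = 0.0258), HSP90AA1 (2.5, adjusted p = 0.0284) and HSPE1 (2.07, adjusted p = 0.0413). With replicate 2 left out it called 0 genes and 0 members, whose lowest adjusted p was 0.494, while 533 genes were higher and 756 lower at an unadjusted p under 0.05. Such a fit takes the lone total RNA array to vary like the TIA1 RIP arrays, which the spread of the total RNA arrays exceeded (SD of the difference over genes 2.00 against 0.89).

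**Figure D2:**
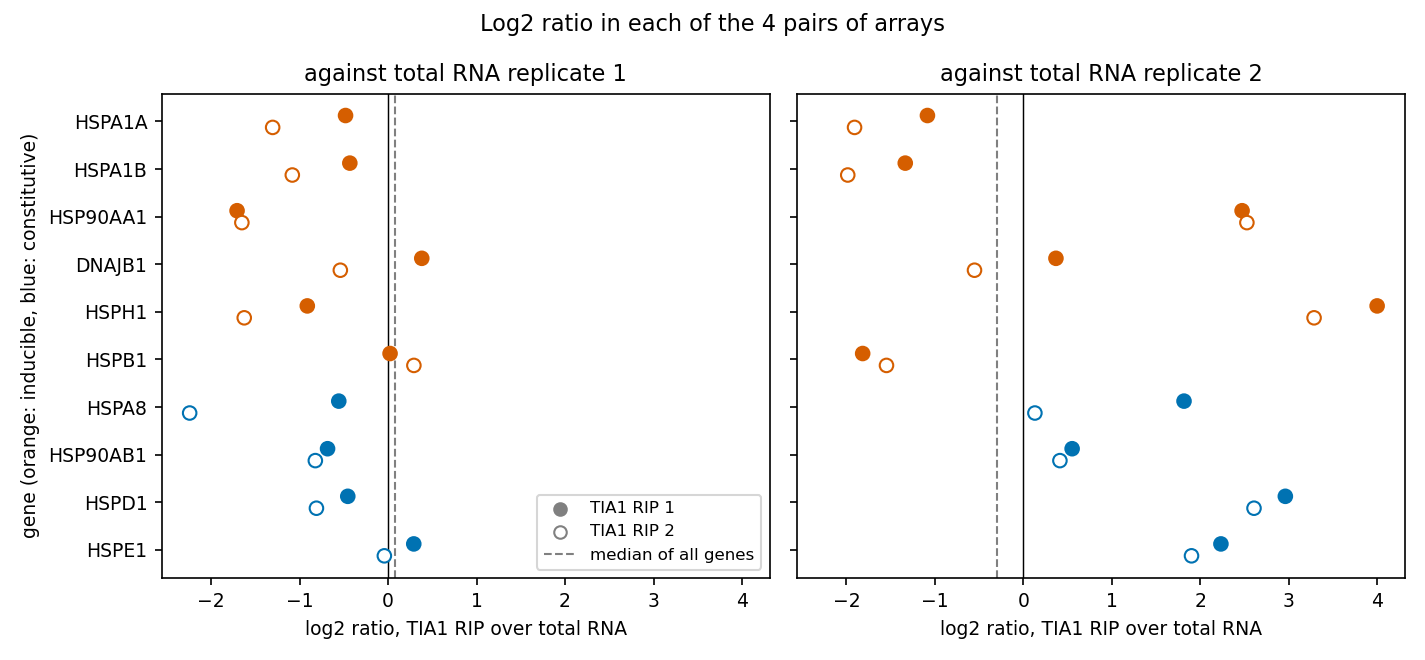
Log2 ratio of TIA1 RIP over total RNA (x axis) for each gene (y axis), against total RNA replicate 1 (left) and replicate 2 (right), 1 point per pair of arrays. HSP90AA1, HSPH1, HSPA8, HSP90AB1 and HSPD1 lie below 0 on the left and above 0 on the right, while HSPA1A and HSPA1B lie below 0 on both sides.

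In rank, HSP90AA1 stood at 4.11% of all genes against total RNA replicate 1 (0% being the lowest ratio) and at 90.1% against replicate 2. HSPH1 went from 8.16% to 97.0%, HSPD1 from 22.3% to 92.6% and HSPA8 from 6.55% to 71.5%. HSPA1A and HSPA1B were in the lower part of the genes on both sides, at 15.2% and 18.6% and then at 26.8% and 23.6%. Of the 652 genes with the brightest 5% of signals on total RNA replicate 1, 5 were members (HSPA1A, HSP90AA1, HSPA8, HSPD1 and HSPE1). The median log2 ratio of the 652 was -0.74 against that array and -1.06 on the means of both total RNA arrays. The array that picked these genes is subtracted in the first ratio and is part of the mean subtracted in the second. Such a choice by itself tends to lower a median. The part of brightness in the members' values was not tested.

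The values against total RNA replicate 2 went along with the GC content of the transcripts. Over 11623 genes with a reference transcript, the Spearman correlation of the log2 ratio with transcript GC content was -0.746 against total RNA replicate 2 and -0.05 against replicate 1, across genes, which are not independent replicates and which share these arrays. In the fifth of genes with the lowest GC content (30.7% to 41.2%) the median log2 ratio was 0.16 against replicate 1 and 2.00 against replicate 2. In the fifth with the highest (59.5% to 76.9%) the medians were 0.04 and -1.86. The members followed this order. The 6 members with a GC content of 39.3% to 47.2% (HSPE1, HSPH1, HSP90AA1, HSPD1, HSPA8 and HSP90AB1) had log2 ratios against total RNA replicate 2 of 0.48 to 3.64. DNAJB1, at 52.8%, had -0.09, and HSPA1B, HSPA1A and HSPB1, at 58.8%, 59.8% and 65.3%, had -1.66, -1.50 and -1.68.

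**Figure D3:**
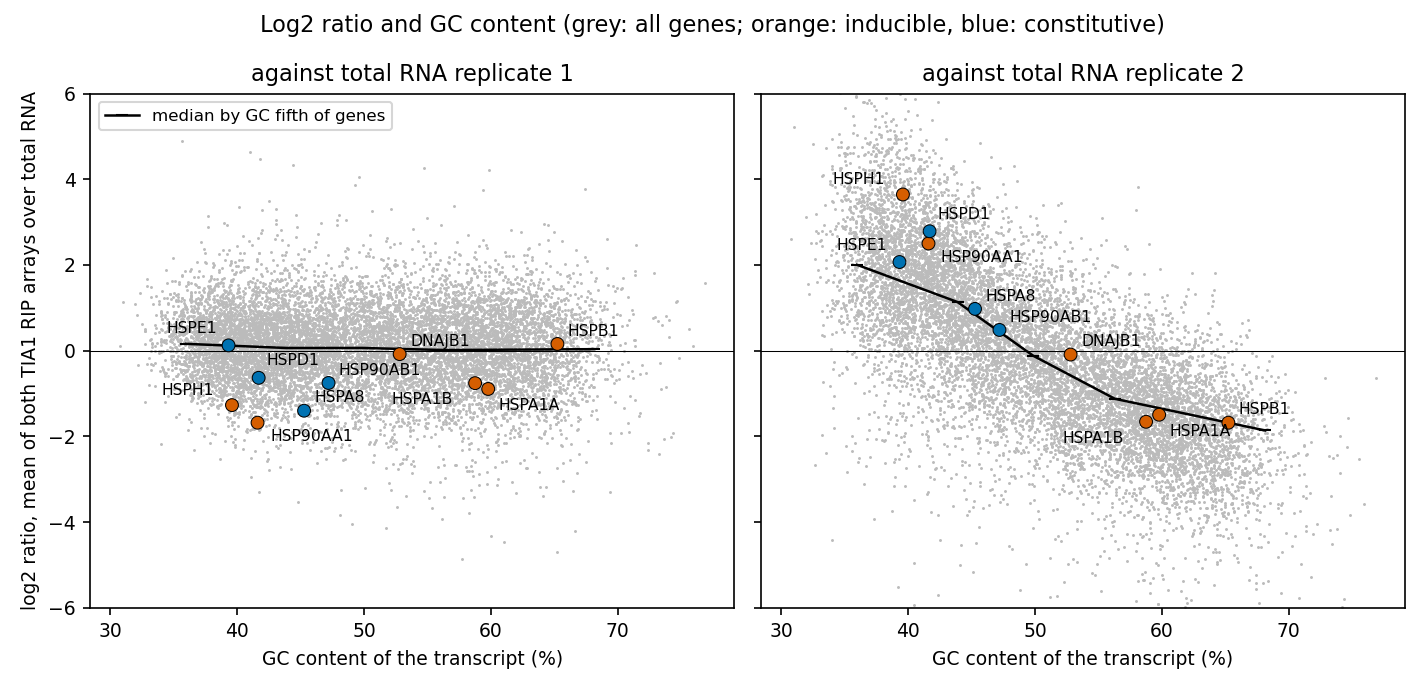
Log2 ratio of the mean of both TIA1 RIP arrays over total RNA replicate 1 (left) and replicate 2 (right) (y axis) against the GC content of the reference transcript in percent (x axis), with 1 grey point per gene, the 10 members labelled and the line through the medians of 5 GC classes. 41 genes lie outside the y range; on the right the line falls from 2.00 to -1.86 and the members fall along it, and on the left it stays between 0.01 and 0.16.

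When the GC trend of each array was subtracted, the members drew closer to each other. The log2 ratios on the means then ran from -0.63 (HSPA8) to 0.29 (HSPB1), and those of HSPA1A and HSPA1B were -0.43 and -0.50 in place of -1.19 and -1.21. HSPH1, HSPD1 and HSPE1 stood at 0.18, 0.26 and 0.07. HSP90AA1 changed sign to -0.41, DNAJB1 to 0.19 and HSPB1 to 0.29. The gap between the total RNA arrays did not close for every member. On the mean of the TIA1 RIP arrays against total RNA replicates 1 and 2, HSP90AA1 still gave -1.73 and 0.91, HSPH1 -1.36 and 1.72, and HSPD1 -0.68 and 1.21. HSPE1 gave 0.03 and 0.11. DNAJB1, whose total RNA arrays were level before, gave -0.09 and 0.47. HSPB1 was the single member of the 10 higher in all 4 pairs of arrays on this scale, by 0.14 to 0.43. How many of all genes were so on this scale was not counted. Before the GC trend was removed it was 19.4% of all genes. Whether GC content itself shaped the signals of these genes was not tested.

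The stress-inducible genes lay below the constitutive genes on the means, but not alike in the 4 pairs of arrays. The mean log2 ratio was -0.28 over the 6 inducible genes and 0.46 over the 4 constitutive genes, a difference of -0.73, for which no test was made because the lists were drawn up with results known. Against total RNA replicate 1 the difference was -0.17 with TIA1 RIP replicate 1 and -0.01 with replicate 2. Against total RNA replicate 2 it was -1.46 and -1.29. The difference was thus -1.37 without total RNA replicate 1 and -0.09 without replicate 2. The inducible list holds the 3 members with the highest GC content, and with the GC trend removed the 4 differences were -0.11, -0.02, 0.12 and 0.21, and that on the means was 0.051. A stricter pair of lists, HSPA1A, HSPA1B and DNAJB1 against HSPA8 and HSP90AB1, gave 0.44 and 0.56 against total RNA replicate 1 and -1.87 and -1.75 against replicate 2. Differences of this kind do not depend on how whole arrays are scaled by a constant.

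**Figure D4:**
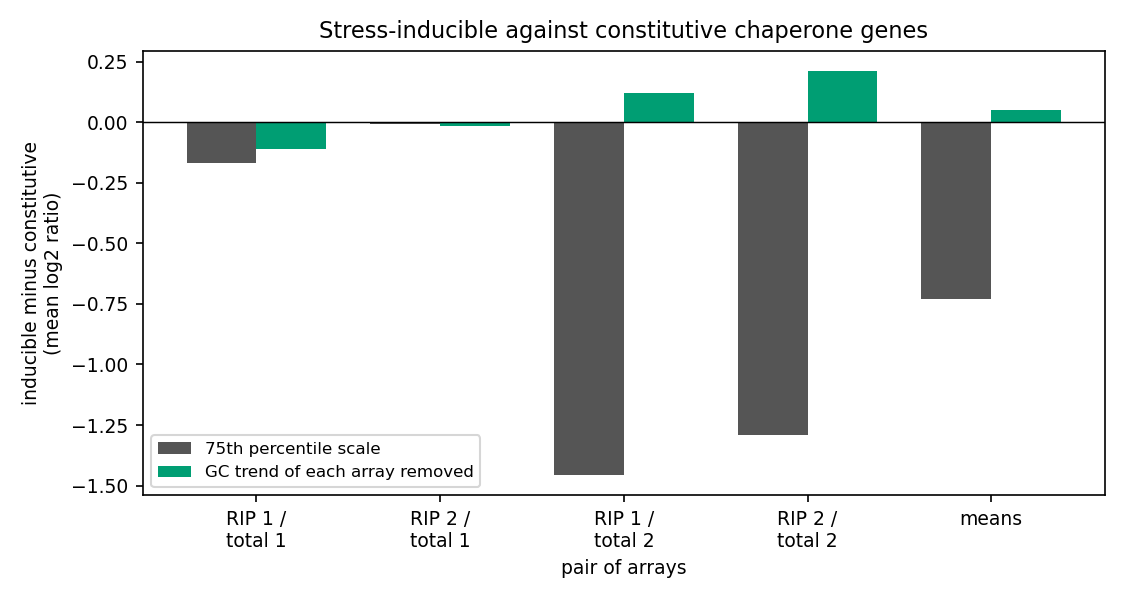
Mean log2 ratio of the 6 stress-inducible genes minus that of the 4 constitutive genes (y axis) in each pair of arrays and on the means (x axis), on the 75th percentile scale (grey) and with the GC trend of each array removed (green). The grey bars are -0.17 and -0.01 against total RNA replicate 1 and -1.46 and -1.29 against replicate 2, and the green bars stay between -0.11 and 0.21.

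The study set immunoprecipitated mRNAs against GAPDH, a glycolytic enzyme gene taken there as a transcript that TIA1 does not bind. It listed mRNAs that differed from GAPDH by more than 2.5-fold on the arrays and also in sequencing. The counts given here come from the arrays alone. GAPDH itself had scaled log2 signals of 6.49 and 6.69 in TIA1 RIP and of 7.67 and 9.63 in total RNA, a log2 ratio of -2.06 (SE 0.93, adjusted p = 0.776 from limma, n = 2 and 2). It was lower in both TIA1 RIP arrays than in either total RNA array, and with quantile normalization its log2 ratio was -0.49. Any gene with a ratio near 0 therefore came out enriched, and the median of all genes was 2.02 on the log2 scale relative to GAPDH. On the means 7 of 10 members were over 2.5-fold higher relative to GAPDH, as were 9445 of 13038 genes (72.4%), and 0 members but 211 genes (1.62%) were over 2.5-fold lower. Without total RNA replicate 1 all 10 members and 77.5% of genes were past 2.5-fold, and without replicate 2 0 of 10 members and 42.3% of genes were. With the median of all genes as the reference in place of GAPDH, 0 members and 12.5% of genes were. With the GC trend of each array removed, 5 of 10 members (DNAJB1, HSPH1, HSPB1, HSPD1 and HSPE1) and 60.1% of 11622 genes were.

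Relative to GAPDH, the highest fold changes on the means were those of HSPH1 (9.49), HSPE1 (8.91) and HSPD1 (8.79). HSP90AA1 followed at 5.54, DNAJB1 at 3.93, HSP90AB1 at 3.80 and HSPA8 at 3.60. HSPB1 at 2.46, HSPA1A at 1.82 and HSPA1B at 1.80 were under 2.5-fold, HSPB1 just so. This order changed when the GC trend was removed, where the log2 values relative to GAPDH were 1.82 for HSPB1, now the highest, 1.79 for HSPD1, 1.71 for HSPH1 and 1.60 for HSPE1, and 1.12, 1.17 and 0.90 for HSP90AA1, HSP90AB1 and HSPA8, which fell under 2.5-fold. None of these differences passed the test, on either scale. In limma, relative to GAPDH, 0 of 10 members and 0 of 13038 genes (0%) passed an adjusted p of 0.05, with adjusted p from 0.223 (HSPE1) to 0.438 (HSPA1A) among the members, while 2538 genes were higher and 99 lower at an unadjusted p under 0.05.

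The 4 pairs of arrays again disagreed. HSPH1 was 1.2-fold and 0.637-fold relative to GAPDH against total RNA replicate 1, and 141-fold and 74.9-fold against replicate 2. The last 2 values average in the probe that was not well above background there, and the probe detected on all 4 arrays gave 177-fold and 90.8-fold. That probe was itself dim on total RNA replicate 2, with a signal of 52.8 where the 75th percentile of the array was 69.9. HSP90AA1 was 0.693-fold and 0.625-fold, and then 49.1-fold and 44.3-fold. HSPB1 was the most even of the 10, at 2.30-fold and 2.40-fold against replicate 1 and 2.51-fold and 2.63-fold against replicate 2. Past 2.5-fold with both TIA1 RIP arrays there were 0 of 10 members against total RNA replicate 1, where 31.1% of all genes were, and 8 of 10 against replicate 2, where 71.8% were. In all 4 pairs there were 0 of 10 members, against 26.2% of all genes. The greatest number of pairs past 2.5-fold was 3 of 4, for DNAJB1 and HSPE1.

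**Figure D5:**
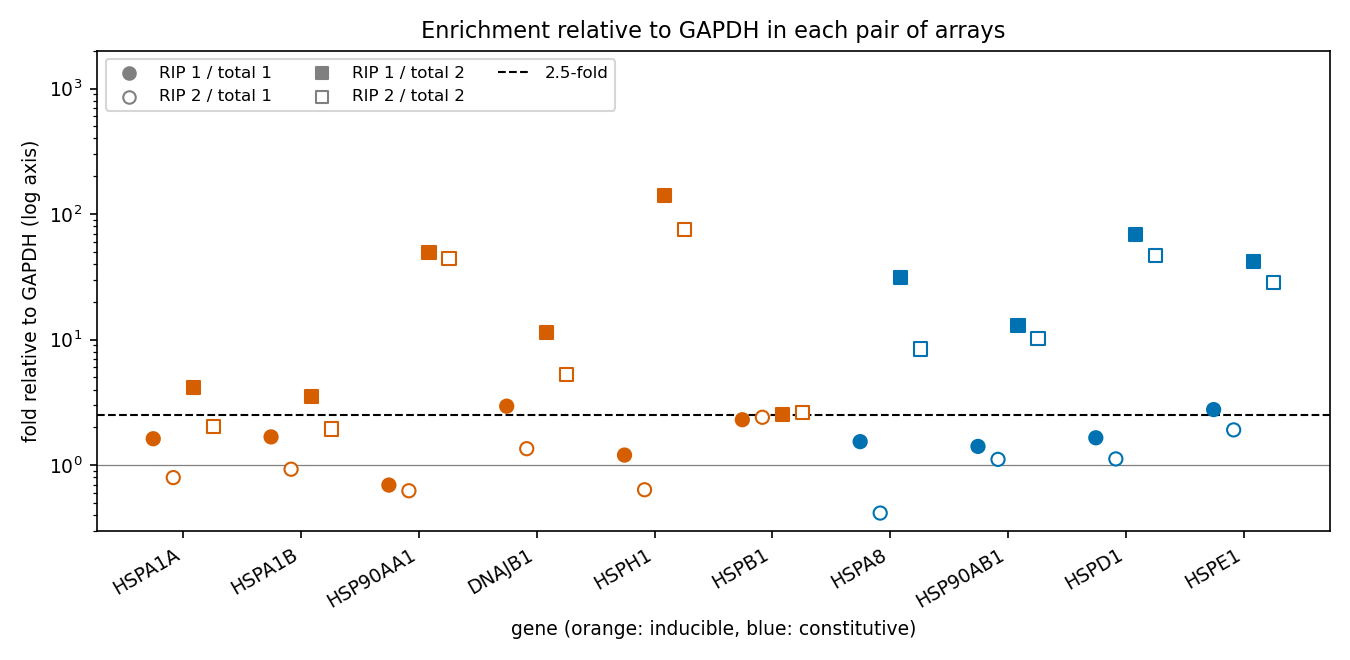
Fold change of each gene relative to GAPDH (y axis, log scale) in each of the 4 pairs of a TIA1 RIP array and a total RNA array, by gene (x axis), with a dashed line at 2.5-fold. Circles, against total RNA replicate 1, lie between 0.415 (HSPA8) and 2.95 (DNAJB1), and squares, against replicate 2, between 1.94 (HSPA1B) and 141 (HSPH1, of which 1 of 2 probes was not well above background on total RNA replicate 2).

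The partners and regulators of these chaperones were described from 8 lists with 72 genes, of which 69 had a probe and 65 were detected. HSPB11, BAG6 and AHSA2 matched no probe, and HSPA12B, HSPB2, HSPB7 and HSPB8 did not pass the detection filter. In limma 0 of the 65 passed the adjusted threshold. At an unadjusted p under 0.05 there were 0 higher and 2 lower (HSF1 and UNC45A), beside 1.1% and 4.02% of all genes. The log2 ratio was above 0 for 45 of 65, against 48.6% of all genes, with a median of 0.44 beside -0.04 over all genes. Both TIA1 RIP arrays lay above both total RNA arrays for 14 of 65 and below for 8, beside 19.4% and 21.7% of all genes. As for the members, the median changed sign between the total RNA arrays, from -0.12 against replicate 1 to 0.96 against replicate 2.

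HSF1, the factor that switches on the inducible genes, was the lowest of its list. Its scaled log2 signals were 4.13 and 3.60 in TIA1 RIP and 5.27 and 7.31 in total RNA. Both TIA1 RIP arrays thus lay below both total RNA arrays, as they did for 21.7% of all genes. The log2 ratio of HSF1 was -2.43 (SE 0.95, unadjusted p = 0.0373, adjusted p = 0.776 from limma, n = 2 and 2). It was below total RNA in all 4 pairs, by 1.14 to 3.71, its transcript has a GC content of 63.9%, and with the GC trend removed its log2 ratio was -1.44. HSF2, a relative active in development, stood at 1.33, with both TIA1 RIP arrays above both total RNA arrays. HSBP1, a small HSF1-binding inhibitor, stood at 0.80 and HSF4 at -0.63.

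Of the HSP70 exchange factors, BAG proteins and other HSP70 regulators, 7 of 9 detected genes had ratios above 0 (median 0.44, or -0.27 and 0.81 against total RNA replicates 1 and 2). BAG2 was at 1.26 and ST13, which steadies HSP70 in its client-bound state, at 0.62, while the exchange factor HSPBP1 and the ubiquitin ligase STUB1 were at -1.34 and -1.32. The J-domain proteins had ratios above 0 for 11 of 12 (median 1.05, but 0.11 against total RNA replicate 1 and 2.05 against replicate 2), of which 0 passed even an unadjusted p of 0.05. The range was led by DNAJB6 at 1.70 and DNAJC7 at 1.33, with DNAJB5 at 0.08 and DNAJA4, the one below 0, at -0.38. The ratios of DNAJB6 in the 4 pairs were 0.77 to 2.63, with an adjusted p of 0.776 in limma. DNAJB1, with -0.09, lay below 11 of these 12 relatives.

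The other HSP70 and HSP110 genes had 5 of 8 detected members above 0 (median 0.74, or -0.36 and 2.03 against the total RNA arrays), between HSPA4 at 1.21, HSPA14 at 0.94, the mitochondrial HSPA9 at 0.53 and HSPA2 at -0.49. HSPA4, another HSP110 gene, had the pattern of HSPH1, with -1.2 against total RNA replicate 1 and 3.63 against replicate 2. The small heat shock proteins related to HSPB1 had a median of 0.03 over 5 detected genes (0.80 and -0.84 against the total RNA arrays), with the lens crystallins CRYAB at 0.08 and CRYAA at 0.03.

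Of the HSP90 cochaperones, 7 of 13 were above 0 (median 0.06, or -0.41 and -0.03 against the total RNA arrays). PPID, an HSP90-bound cyclophilin, was highest at 2.21, with ratios of 0.13 to 4.30 in the 4 pairs, and AHSA1, which speeds the HSP90 ATPase, was at 1.13. UNC45A, a myosin chaperone that works with HSP90, was lowest at -2.21 (unadjusted p = 0.0462, adjusted p = 0.776 from limma; -0.65 without the detection filter), with 0.62 and 0.42 in TIA1 RIP and 1.78 and 3.67 in total RNA. NUDC was at -0.90.

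The TRiC chaperonin, the cytosolic counterpart of HSPD1 that folds actin and tubulin, had 5 of 8 subunits above 0 (median 0.56), a median that was -0.41 against total RNA replicate 1 and 1.53 against replicate 2. CCT8 was at 1.38 and CCT6A at 1.25, and CCT7 and CCT4 at -1.1 and -0.37. Prefoldin, which hands nascent actin and tubulin to TRiC, had 5 of 6 subunits above 0 (median 1.2, or 0.47 and 1.85 against the total RNA arrays), and in 4 of the 6, beside 19.4% of all genes, both TIA1 RIP arrays lay above both total RNA arrays, among them PFDN2 at 1.31 and PFDN6 at 0.61. PFDN4 was at 1.36, and PFDN5 was at -0.90, with its TIA1 RIP arrays below both total RNA arrays. None of these subunits passed the adjusted threshold in limma.

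The mean profile of the 10 members over the 4 arrays, centred on its own mean, was 0.27 and -0.26 in TIA1 RIP and 0.73 and -0.74 in total RNA. The range within total RNA was thus wider than the difference between the group means, 0.02. By the smallest root mean square difference over the 4 arrays, the genes nearest to this profile were PSMA5 (0.021), NUP133 (0.034), CSNK1A1L (0.042), ZMYM6 (0.053) and TRMO (0.053).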

How the data were processed

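The authors labelled RNA of KYSE180 cells with Cy3 for single-colour Agilent arrays and deposited scanner files (Feature Extraction 10.7.1.1 per the file headers) with a background-subtracted intensity per spot, on a linear scale and without normalization across arrays. Other deposited columns, which flag spots as uneven, deviant, saturated or detected, served as filters. According to the methods, the arrays were analysed in GeneSpring, and immunoprecipitated mRNAs were set against constitutive levels from the arrays and then against GAPDH, with no detection filter, test or scaling between arrays given.

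Of 58717 spots for 50599 probes, 299 to 382 per array were left out as uneven or deviant, and 0 were saturated. The log2 of the deposited processed signal was centred on the 75th percentile of each array, spots of a probe were averaged, and a probe was kept if it was detected, with a share of 0.5 or more of its spots well above background, on each array of TIA1 RIP or of total RNA. Probe transcripts were matched to symbols through RefSeq accessions and GENCODE on GRCh37 for 34510 probes (68.2%), and kept probes of a gene were averaged. Transcript features come from GENCODE on GRCh37.

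The groups were tested with limma 3.58.1 (R 4.3.3; lmFit and eBayes, two-sided, Benjamini-Hochberg over all genes), after a test on simulated data, on this scale and relative to GAPDH. Differences of single arrays got no test. The number of arrays limits the precision. Tables and figures were made with Python 3.11.15, pandas 2.3.3 and matplotlib 3.10.9. The members and lists were chosen with earlier results of these data known. Named genes were all members, GAPDH and ACTB, HSF1, the 2 highest and 2 lowest genes of each list detected on all 4 arrays, any list gene past the adjusted threshold (0), and the 5 genes nearest to the mean profile. Alternatives covered background correction (normexp with an offset of 50 on the median spot intensity, in place of the mean first planned), scaling, filters, probe choice, GC correction (lowess on transcript GC content, span 0.3), the reference, the fold, the lists, the replicate block and each array left out. RNA from IgG immunoprecipitates and sequencing reads were not analysed here. A single marker gene is not reported here.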

Additional observations from a re-analysis of the deposited data

How the results depend on the processing

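Leaving out each array in turn gave 0 to 1849 genes higher and 0 to 2051 lower past the adjusted p, the most without total RNA replicate 1. Relative to GAPDH, 5510 to 10107 genes and 0 to 10 members were past 2.5-fold, and 0 to 9774 genes also past the adjusted p. The lone array left in a group is assumed to vary like the other group. The inducible minus constitutive difference was -1.37 to -0.09. Log2 ratios that changed sign in these fits ran from -1.68 to 2.5 for HSP90AA1, -0.55 to 0.37 for DNAJB1, -1.27 to 3.64 for HSPH1, -1.68 to 0.16 for HSPB1, -1.40 to 0.97 for HSPA8, -0.75 to 0.48 for HSP90AB1 and -0.63 to 2.79 for HSPD1. They ran from -1.96 to 0.71 for HSF4, -1.20 to 3.63 for HSPA4, -0.56 to 2.45 for HSPA14, -0.66 to 1.71 for HSPA9, -1.32 to 1.47 for CRYAB, -0.74 to 0.80 for CRYAA, -0.97 to 0.20 for DNAJA4, -0.35 to 0.50 for DNAJB5, -0.29 to 2.81 for BAG2, -0.28 to 3.04 for CCT8, -0.17 to 2.67 for CCT6A and -0.79 to 0.046 for CCT4. Relative to GAPDH they ran from -0.60 to 5.54 for HSP90AA1, -0.19 to 6.69 for HSPH1 and -0.32 to 4.02 for HSPA8.

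The replicate numbers are labels with no stated pairing, and deviations from the group means of same-numbered arrays correlated at r = 0.453 over genes. With the replicate number as a block, 57 genes were higher and 299 lower, and 0 members (lowest adjusted p 0.579), while the block with the GC correction gave 0 genes on this scale (916 higher and 1060 lower at an unadjusted p under 0.05). Relative to GAPDH, the block with the GC correction called 6344 of 11622 genes (54.6%), which passed 2.5-fold and the adjusted p, and 5 of 10 members, near that share, with log2 values of 1.72 (DNAJB1), 1.71 (HSPH1), 1.82 (HSPB1), 1.79 (HSPD1) and 1.60 (HSPE1). GC correction, with or without the block, gave an inducible minus constitutive difference of 0.051 and changed the log2 ratio of HSP90AA1 to -0.41, DNAJB1 to 0.19, HSPB1 to 0.29, HSF4 to 0.38, HSPA9 to -0.25, ST13 to -0.39 and PFDN4 to -0.14.

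Scaling moved the median log2 ratio of all genes from -0.04 to 0.26 (quantile), 0.21 (cyclic loess) and 0.27 (75th percentile of probes detected on all arrays). DNAJB1 became 0.16, 0.23 and 0.22, HSPA8 0.15, 0.24 and 0.10, and HSP90AB1 0.28, 0.33 and 0.17, in that order. HSPB1 became 0.41 with quantile normalization, and CCT4 0.55 and 0.36 with quantile and cyclic loess. With normexp (median of all genes -0.13) DNAJB1 became 0.25, HSPA8 0.20, HSP90AB1 0.26 and CCT4 0.11. Without a filter CRYAA became -0.22, HSPA8 -1.41 and UNC45A -0.65. Relative to GAPDH, HSPA8 then became 0.65, which left 6 of 10 members past 2.5-fold, beside 56.7% of 24150 genes. With the brightest probe HSP90AB1 became 0.60 and ST13 -0.049. Among genes detected on all arrays, 5932 of 9236 (64.2%) were past 2.5-fold relative to GAPDH, beside 72.4% of 13038 genes with the main filter. With all genes' median as the reference rather than GAPDH, 1636 genes and 0 members were past 2.5-fold, and the log2 values were -1.16 (HSPA1A), -1.18 (HSPA1B), -0.055 (DNAJB1), -0.73 (HSPB1), -0.18 (HSPA8) and -0.10 (HSP90AB1). The cause of these changes was not tested. Of 815 values under alternatives, 704 kept their direction and their side of the threshold, or moved by less than the spread. The count includes settings that leave a log2 ratio as it was, such as the replicate block, or the brightest probe for a gene with 1 kept probe.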

Other observations

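ACTB, which encodes cytoplasmic actin and served as a second reference, had scaled log2 signals of 5.95 and 6.11 in TIA1 RIP and of 6.87 and 8.84 in total RNA, and a log2 ratio of -1.83 (SE 0.93, adjusted p = 0.776 from limma, n = 2 and 2). Relative to GAPDH it stood at 0.23.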
